A study of Mus musculus with 6 samples.

Results

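Iron and trace metal handling was followed through 10 genes in RNA sequencing libraries of ID8, a line of mouse ovarian surface epithelium widely used as a model of ovarian cancer. The genes were taken by symbol for their roles, with earlier results of these data known. They are the metallothioneins Mt1 and Mt2, the ferritin chains Fth1 and Ftl1, the iron uptake genes Tfrc and Slc11a2, the iron exporter Slc40a1, the regulators Ireb2 and Ncoa4, and haem oxygenase Hmox1. All 10 were found among the 53465 genes of the count table, and 7 of them had enough counts to be tested, as did 8200 genes in all. The libraries form 2 groups of 3. The groups are labelled WT and KO, with replicates numbered 4 to 6 in each. The series text describes ID8 cells stably carrying either a control guide (sgNC) or a guide against Nat10 (sgNat10), which encodes the enzyme that acetylates cytidine in RNA, and the WT label was read as sgNC and the KO label as sgNat10. No treatment, time or number of clones is given for these libraries. Whether the replicates are separate cultures is not given either, so a p-value here rests on how far these libraries differ from one another, and that spread may be technical. The labels name no separate lines within a group, so line and guide cannot be told apart. In bulk RNA, fewer cells that express a gene and less of its RNA per cell cannot be told apart either.

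Iron enters most cells bound to transferrin through the transferrin receptor, passes into the cytosol through DMT1, is stored in ferritin cages of heavy and light chains, and leaves through ferroportin. When iron is scarce, iron regulatory proteins bind hairpins called iron-responsive elements, which blocks translation of ferritin mRNA and protects transferrin receptor mRNA from decay. Metallothioneins are small cysteine-rich proteins that bind zinc, copper and cadmium, and their genes are switched on by metals through the factor MTF1. Free iron drives lipid peroxidation and the form of cell death called ferroptosis.

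Total counts ran from 1687466 to 2148715 in the WT libraries and from 2234305 to 3126208 in the KO-labelled libraries, so 1 count was worth 0.32 to 0.593 CPM, that is counts scaled to a common library size. The KO-labelled libraries were thus all deeper than the WT libraries. The levels of Nat10 mRNA overlapped between the groups, with 168, 128 and 292 counts in WT and 315, 133 and 445 counts in KO replicates 4, 5 and 6, that is 111 ± 52.5 and 105 ± 42.7 CPM (SD over 3 libraries each; edgeR adjusted p = 0.99996). Directions below are therefore those of the labels only. Markers of the ovarian surface epithelium and mesothelium all had a count (10 of 10), and 7 had enough counts to be tested. Their summed level was 6164 to 6612 CPM in WT and 4635 to 5284 CPM in KO-labelled libraries. The highest were Krt19 and Msln, with means of 3180.7 and 1200.6 CPM over all libraries. Markers of other cells that handle iron were scarce. Their summed levels were 0 to 43 and 0 to 10.1 CPM for 10 macrophage markers, 13.2 to 69.8 and 1.54 to 30.5 CPM for 10 hepatocyte markers, and at most 0.307 CPM for 10 erythroid markers, of which 9 had no count.

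The iron-responsive elements are shown first, because they are the hairpins through which iron is known to act on the RNA of Tfrc, the ferritin chains and ferroportin. They were sought in the longest coding transcript of each gene (GENCODE M21, mm10) as a hairpin of 5 base pairs, G-U pairs allowed, that closes the loop CAGTGN with a last base other than G and follows an unpaired C. Such a hairpin was found in 204 of 21877 coding genes (0.932%), and in 4 of the 10 genes described here. Capitals mark the loop in these 27-base sites, given as DNA letters of the sense strand.

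Fth1, 5′ UTR, chr19:9982733-9982759, plus strand: tcctgcttcaaCAGTGCttgaacggaa
Ftl1, 5′ UTR, chr7:45459780-45459806, minus strand: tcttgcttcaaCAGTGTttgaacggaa
Slc40a1, 5′ UTR, chr1:45925466-45925492, minus strand: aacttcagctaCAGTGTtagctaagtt
Tfrc, 3′ UTR, chr16:32631220-32631246, plus strand: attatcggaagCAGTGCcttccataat
Tfrc, 3′ UTR, chr16:32631599-32631625, plus strand: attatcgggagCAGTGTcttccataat
Tfrc, 3′ UTR, chr16:32631664-32631690, plus strand: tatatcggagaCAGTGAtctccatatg
Tfrc, 3′ UTR, chr16:32631711-32631737, plus strand: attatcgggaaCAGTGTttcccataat

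The sites of the ferritin chains were equal at 25 of 27 bases, while those of Fth1 and Slc40a1 were equal at 13. Tfrc was the only coding gene whose searched transcript held at least 4 such hairpins (1 of 21877), and its sites were equal to each other at 17 to 25 bases. No such hairpin was found in the searched transcripts of Mt1, Mt2, Slc11a2, Ireb2, Ncoa4 or Hmox1, which says only that these letters are not there in this form. An isoform of Slc11a2 is known to carry an iron-responsive element as well, which this search of a single strict form in 1 transcript per gene did not find.

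The metallothionein genes are neighbours on chromosome 8, with 5514 bases between the end of Mt2 and the start of Mt1, both on the plus strand. Their promoters are shown because only Mt1 was counted in every library. The sequences are the 250 bases before the start site in RefSeq (GRCm38.p6), and capitals mark the core of the metal response element, TGCACNC or TGCGCNC on either strand.

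Mt1, chr8:94178839-94179088, plus strand: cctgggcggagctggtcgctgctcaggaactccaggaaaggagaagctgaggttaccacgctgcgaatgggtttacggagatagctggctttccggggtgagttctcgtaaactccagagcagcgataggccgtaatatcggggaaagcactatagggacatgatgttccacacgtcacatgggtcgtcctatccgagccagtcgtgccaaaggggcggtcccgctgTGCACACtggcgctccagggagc
Mt2, chr8:94172368-94172617, plus strand: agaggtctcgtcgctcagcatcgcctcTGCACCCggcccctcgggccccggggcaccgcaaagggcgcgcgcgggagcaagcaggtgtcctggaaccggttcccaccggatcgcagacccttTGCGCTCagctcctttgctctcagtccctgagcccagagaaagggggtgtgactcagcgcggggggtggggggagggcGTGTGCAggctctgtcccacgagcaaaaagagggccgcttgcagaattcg

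In the 300-base windows of the RefSeq table, which run on to 50 bases past the start, Mt1 had 3 cores and Mt2 had 4. Of these, 1 in Mt1 and 3 in Mt2 lay before the start, as printed above. The other cores of Mt1 began at bases 3 and 21 after the start, and that of Mt2 at base 5, outside the printed stretches. How many cores lie before the start therefore depends on where the start is annotated. The start is that of the annotation, and where transcription begins in these cells was not tested. At least 3 cores were found in 1.97% of 32851 promoter windows and at least 4 in 0.517%. At least 1 core was found in 25.7% of the windows. Promoter windows were matched for 7 of the 10 genes, and beside the metallothioneins a core was found in 1 of 2 windows of Tfrc and 1 of 3 windows of Ncoa4.

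No member passed the test between the groups. In the quasi-likelihood test of edgeR, with p-values adjusted by Benjamini and Hochberg's method and a threshold of 0.05, 0 of the 7 tested members were called, where 0.402% of all tested genes were. DESeq2 also called 0 of 7, against 2.85% of all tested genes. At an unadjusted p under 0.05 there was 1 member, Tfrc, lower in KO-labelled libraries, where 3.79% of all tested genes were lower at that p. In 2 members, Mt1 and Tfrc, every KO-labelled library stood below every WT library, and this was so in 7.93% of all tested genes. Of the 7 tested members, 6 had an estimate below 0, against 51% of all tested genes, and their median log2 fold change was -0.33 against -0.02 for all tested genes.

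**Figure D1:**
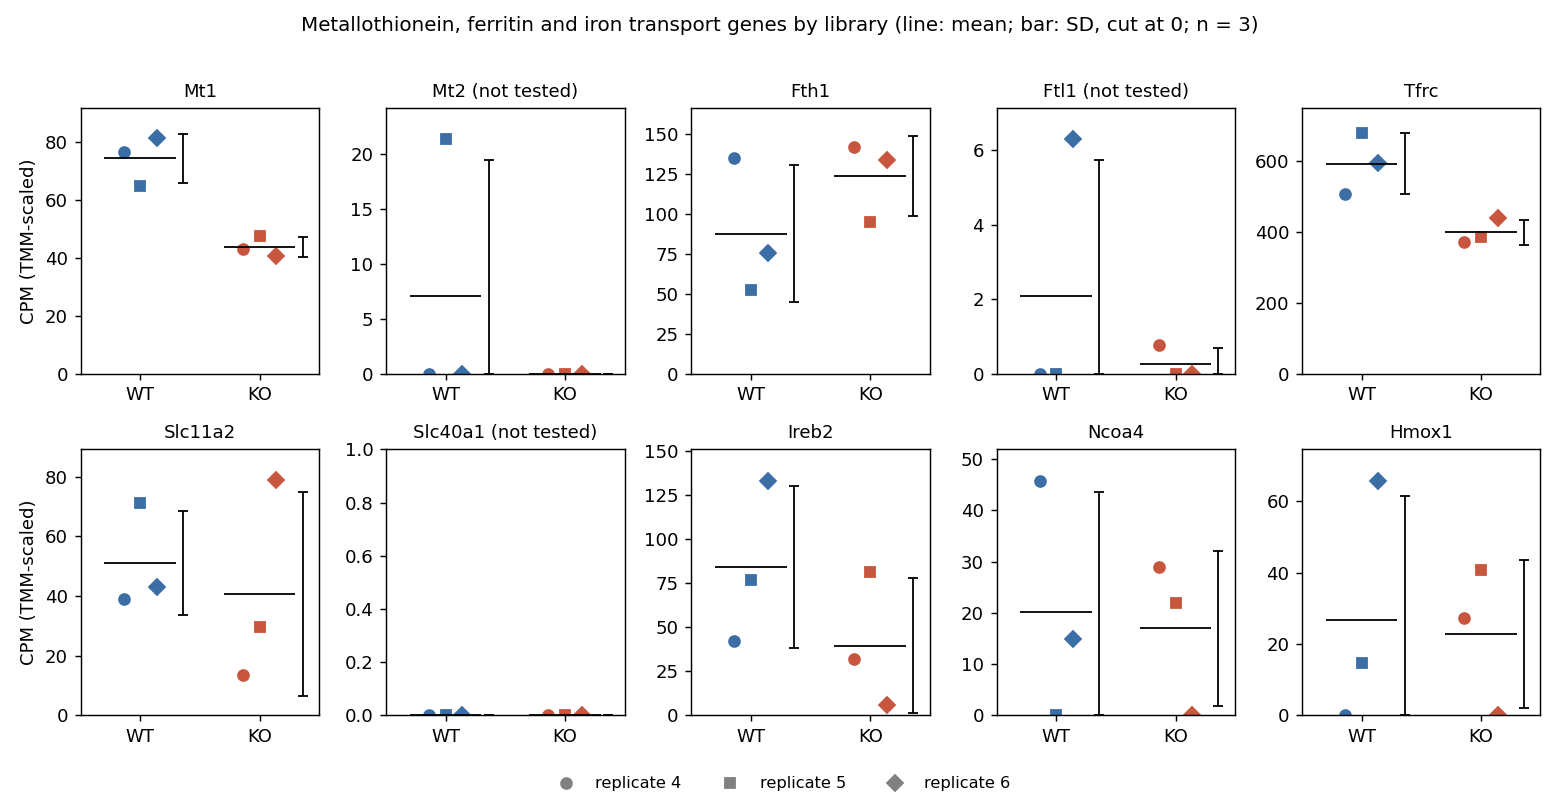
Level of each of the 10 genes in each library (y axis, CPM with TMM scaling, a separate scale per gene) for WT and KO-labelled libraries. Points are libraries, lines are means and bars are SD (n = 3 per group). The KO-labelled libraries lie below the WT libraries for Mt1 and Tfrc, the groups overlap for the other members, and Mt2, Ftl1 and Slc40a1 lie at or near 0.

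Tfrc, the transferrin receptor that brings iron into the cell, had the highest mean CPM of the members as counted. It stood lower in the KO-labelled libraries without passing the test. Its level was 506, 678 and 593 CPM in WT replicates 4, 5 and 6 and 371, 386 and 438 CPM in KO replicates 4, 5 and 6. The groups did not overlap, with the lowest WT library above the highest KO-labelled library. The means were 592 ± 86.1 and 399 ± 35.2 CPM (SD over 3 libraries each), 1.49-fold lower in KO-labelled libraries. edgeR estimated this as a log2 fold change of -0.57 ± 0.21 (SE; 95% interval -1.03 to -0.12), and its p of 0.0174 became 0.543 once adjusted. The adjusted p was 0.106 in DESeq2, and over all 14 other settings it ran from there to 0.965. The estimate ran from -0.67 without WT replicate 4 to -0.46 without WT replicate 5. The raw counts of the groups were nearly equal, 3246 in WT and 3299 in KO-labelled libraries, over totals of 5647406 and 7901786, so the difference appears once counts are scaled to depth. Tfrc (ENSMUSG00000022797) lies on chromosome 16 from 32608920 to 32632794, and no exon of another annotated gene overlaps its exons.

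Mt1, a metallothionein, also stood lower in the KO-labelled libraries without passing the test. Its level was 76.5, 64.8 and 81.3 CPM in WT replicates and 42.9, 47.5 and 40.5 CPM in KO-labelled replicates 4, 5 and 6. Again the groups did not overlap. The means were 74.2 ± 8.47 and 43.6 ± 3.53 CPM (SD over 3 libraries each), 1.7-fold lower in KO-labelled libraries. The edgeR estimate was -0.76 ± 0.54 on the log2 scale (SE; 95% interval -1.92 to 0.39), with an adjusted p of 0.99996 (0.679 in DESeq2). An exact permutation test on log2 CPM, two-sided, gave p = 0.1, the smallest that 3 against 3 libraries allow, for Mt1 and likewise for Tfrc. This value follows from the lack of overlap already described and adds no support to it. The raw counts hardly differed, with 127, 131 and 142 in WT and 111, 112 and 132 in KO-labelled libraries. As for Tfrc, the difference appears with scaling to depth, and it was -0.66 with library totals in place of TMM, the scaling used elsewhere. The part of depth in either difference was not tested. Mt1 (ENSMUSG00000031765) lies on chromosome 8 from 94179082 to 94180327.

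Mt1 was the steadiest member between replicate libraries. Its log2 CPM varied within groups by an SD of 0.14, and the counts alone would give about 0.13. Of 3264 tested genes with a mean from 2-fold below to 2-fold above its own, 99.5% had a larger SD, and their median SD was 0.76. edgeR draws each gene's spread towards that of genes of like abundance, and its SE of 0.54 for Mt1 compares with 0.12 from the 6 libraries of Mt1 alone. Tfrc had a within-group SD of 0.17, below that of 87.5% of the 560 tested genes near its mean. At the other end, Ireb2, Ncoa4 and Hmox1 had SDs of 1.41, 2.90 and 3.12, and only 15.9%, 3.22% and 0.823% of the genes near their means varied more.

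**Figure D2:**
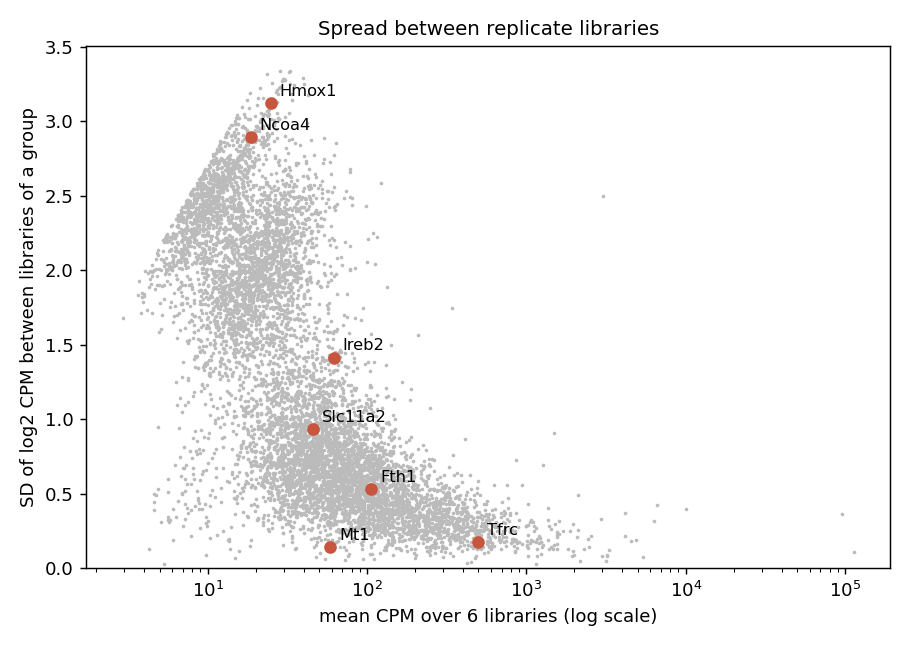
Spread between replicate libraries (y axis, SD of log2 CPM pooled over the groups) against the mean level (x axis, CPM, log scale) for the 8200 tested genes in grey and the 7 tested members in red. Mt1 lies at the lower edge of genes of its level with an SD of 0.14, and Ncoa4 and Hmox1 lie near the upper edge at 2.90 and 3.12.

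Mt2, the second metallothionein, was counted in a single library. It had 43 counts in WT replicate 5 and 0 in the other 5 libraries, and was too low to test. A count of 0 over the KO-labelled group allows up to 0.38 CPM, by the limit of 3 counts, which like all counting intervals here covers counting error only because amplified reads are not independent molecules. Mt2 (ENSMUSG00000031762, chromosome 8 from 94172664 to 94173568) shares 73.5% of its 588 exon bases with Gm45774, a gene on the other strand that had no counts. That leaves 156 exon bases that belong to Mt2 alone. Whether the counting used strand is not stated in the labels, and a read over exons of more than 1 gene can be left uncounted. Among coding genes with at least 50% of their exon bases overlapped, 19.5% of 579 had a count in any library, against 44.5% of 15623 without overlap. With a smaller overlap the share was higher than either, at 66.8% of 5740. The part of the overlap in the counts of Mt2 was not tested.

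Fth1, the ferritin heavy chain that oxidises iron for storage, was the only tested member with an estimate above 0. Its level was 135, 52.4 and 75.6 CPM in WT and 142, 95 and 134 CPM in KO-labelled replicates 4, 5 and 6. The groups overlapped, because WT replicate 4 stood above KO replicates 5 and 6. The means were 87.6 ± 42.5 and 124 ± 25.1 CPM (SD over 3 libraries each). edgeR's log2 fold change of 0.50 ± 0.45 (SE; 95% interval -0.46 to 1.45) had an adjusted p of 0.99996. It was 0.95 without WT replicate 4 and 0.23 without WT replicate 5. Fth1 (ENSMUSG00000024661) lies on chromosome 19 from 9980598 to 9985098. Of the 50-base stretches of its transcripts 1.6% occur in another annotated gene, Gm6977, which had 54 counts, and the part of this gene was not tested.

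Ftl1, the ferritin light chain, was almost absent from the counts, as WT replicate 6 gave 11 counts, KO replicate 4 gave 2 and the other 4 libraries gave 0. It was too low to test. In its case 58.4% of the 50-base stretches of its transcripts occur in other annotated genes, 17 in all, which include the pseudogenes Ftl1-ps1, Ftl1-ps2 and Ftl2-ps, and these 17 genes had no counts. In addition, 34.6% of its 1340 exon bases on chromosome 7 (45457944 to 45459884) are overlapped by Gm10252 on the other strand or by Gm22133. Reads that fit several places can be left uncounted, and how such reads were treated is not stated in the labels. The counts of Ftl1 are therefore uncertain as a measure of its mRNA, and the part of the copies was not tested. The 16 other annotated genes named as ferritin or metallothionein copies had no count in any library.

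The ratio of Tfrc to ferritin counts sets the mRNA of an uptake gene against that of storage genes within a library and does not depend on how libraries are scaled. It is not corrected for transcript length. Because ferritin is also controlled at translation, it does not measure iron uptake or storage. Tfrc counts were 3.75, 12.9 and 7.24 times those of Fth1 and Ftl1 together in WT and 2.6, 4.07 and 3.28 times in KO-labelled replicates 4, 5 and 6. The groups overlapped, with WT replicate 4 below KO replicate 5. The mean log2 ratio was 2.82 ± 0.89 for WT against 1.70 ± 0.32 for KO-labelled libraries (SD over 3 libraries each), a difference of -1.11, and the exact permutation test, two-sided, gave p = 0.2 where 0.1 is the smallest possible. The difference was -1.57 without WT replicate 4 and -0.68 without WT replicate 5. Since Ftl1 gave 13 counts in all, the ratio is in effect that of Tfrc to Fth1.

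The groups overlapped for the other transporters and the regulators, and none of those tested was called. Slc11a2 encodes DMT1, which carries iron out of endosomes. It stood at 39.1, 71.2 and 42.9 CPM in WT and 13.5, 29.7 and 78.9 CPM in KO-labelled replicates, with its lowest and its highest value both in KO-labelled libraries. Its log2 fold change was -0.33 ± 0.76 (SE; edgeR adjusted p = 0.99996) and depended on single libraries, at 0.10 without KO replicate 4 and -1.24 without KO replicate 6. Of the 50-base stretches of the Slc11a2 transcripts 4.3% occur in other annotated genes, 515 in all, and the 503 of them in the count table had 172417 counts. Gm5475 on the other strand overlaps 6.3% of the exon bases of Slc11a2, and the part of either was not tested. Slc40a1 encodes ferroportin, the iron exporter, and had no count in any library. Over all 13549192 counts this allows a level of up to 0.221 CPM.

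Ireb2, iron regulatory protein 2, which binds the hairpins printed above, was spread over a wide range. It stood at 42.1, 76.7 and 133 CPM in WT and 31.7, 81 and 5.84 CPM in KO-labelled replicates 4, 5 and 6. KO replicate 5 lay above 2 of the WT libraries, and KO replicate 6 lay below all others. edgeR's log2 fold change of -1.09 ± 0.78 (SE; 95% interval -2.76 to 0.58) had an adjusted p of 0.99996. With KO replicate 5 left out it was -2.17, with KO replicate 6 left out -0.58, and with WT replicate 6 left out -0.60.

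Ncoa4 and Hmox1 were each missing from a library of either group. Ncoa4, the receptor that delivers ferritin to autophagy and so releases its iron, had 76, 0 and 26 counts in WT and 75, 52 and 0 counts in KO-labelled replicates 4, 5 and 6. Hmox1, which opens the haem ring and frees its iron, had 0, 30 and 115 counts in WT and 71, 96 and 0 counts in KO-labelled replicates. Both genes thus went from 0 to 76 or more counts between libraries of the same table, with the 0 in WT replicate 5 for Ncoa4, in WT replicate 4 for Hmox1 and in KO replicate 6 for both. A library without a count was common at these levels, in 57.1% of the tested genes within 2-fold of the mean of Ncoa4 and in 42.1% of those near Hmox1. The log2 fold changes were -0.25 ± 2.05 for Ncoa4 and -0.25 ± 1.81 for Hmox1 (SE; edgeR adjusted p = 0.99996 for each), with intervals from -4.64 to 4.14 and from -4.12 to 3.63. The sign of Ncoa4 turned without WT replicate 4 (1.19) and without KO replicate 6 (0.33), and that of Hmox1 without WT replicate 6 (1.60) and without KO replicate 6 (0.33) and with the replicate number as a block (1.24). With such a spread between libraries the intervals hold changes of several fold in either direction. KO replicate 6 was the deepest of all libraries and WT replicate 5, where Ncoa4 had no count, the deepest of WT, while WT replicate 4, where Hmox1 had no count, was the shallowest. Of the 50-base stretches of the Ncoa4 transcripts 17.9% occur in Gm6768, which had no counts, and the part of this copy was not tested.

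**Figure D3:**
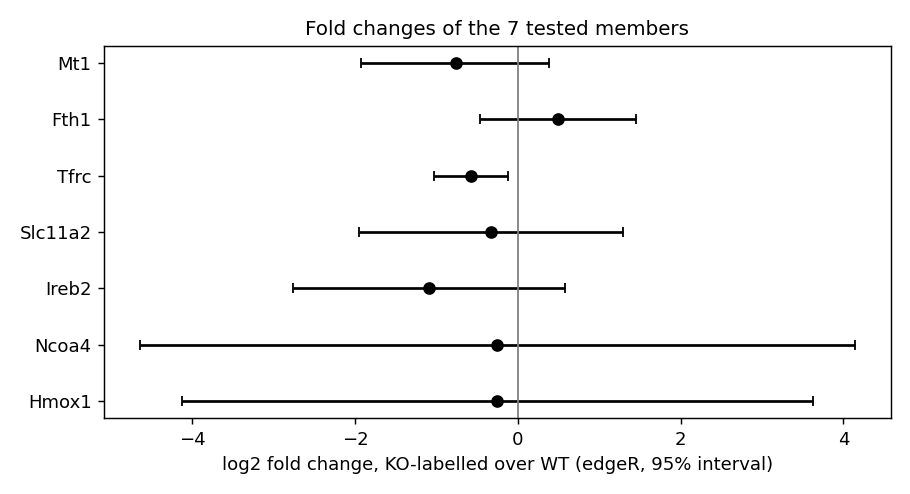
Log2 fold change of KO-labelled over WT libraries (x axis; points are edgeR estimates, bars 95% intervals) for the 7 tested members (y axis), 3 libraries per group. The interval of Tfrc, from -1.03 to -0.12, is the narrowest and does not reach 0 before adjustment, while those of Ncoa4 and Hmox1 span more than 7 units.

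Set in order by CPM per kilobase of annotated exon, the mean over the 6 libraries was 80.1 for Tfrc (60 to 110), 47.3 for Mt1 (32.5 to 65.2), 30.4 for Fth1 (15.1 to 41) and 14.2 for Hmox1 (0 to 37.6). Slc11a2 followed at 7.23 (2.13 to 12.4), then Ireb2 at 6.51 (0.616 to 14), Mt2 at 6.03 (0 to 36.2), Ncoa4 at 1.99 (0 to 4.89), Ftl1 at 0.879 (0 to 4.7) and Slc40a1 at 0. The ranges of all neighbours in this order overlapped or met at 0, and the range of Tfrc lay above those of all members except Mt1. The length used is that of all annotated exons together, which understates genes with a much shorter main transcript. For Fth1 it was 3469 bases against 1494 in the longest coding transcript, and for Mt1 1246 against 1085. The order of Mt1 and Fth1 therefore depends on the length used.

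Among 4530 other tested genes of moderate to high level (average log2 CPM 5 or more), the pattern over the 6 libraries most like that of Mt1 was Ablim1 (Pearson r = 0.994 of log2 CPM), and the most like Tfrc was Espl1 (r = 0.970). With so few libraries many genes come close, as 72 genes had an r over 0.9 with Mt1 and 56 with Tfrc, and all share the same libraries and depth. These values describe likeness and carry no test.

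Around the members, 6 lists of metal, haem and ferroptosis genes held 114 different tested genes, and edgeR called 0 of them (at an unadjusted p under 0.05 there were 12, where 6.49% of all tested genes passed, and DESeq2 called 4, where 2.85% of all tested genes were called). Among 21 tested genes of iron uptake, export and regulation, 14 had an estimate above 0 and 7 below, with a median log2 fold change of 0.23 against -0.02 for all tested genes. Ceruloplasmin (Cp), the copper oxidase that loads iron onto transferrin, had 458, 409 and 430 CPM in WT libraries against 316, 121 and 158 CPM in KO-labelled ones (log2 fold change -1.12 ± 0.32 SE, edgeR adjusted p = 0.29, DESeq2 adjusted p = 0.0198). Aco1, iron regulatory protein 1, had 465, 371 and 297 CPM in WT libraries against 167, 284 and 210 CPM in KO-labelled ones (edgeR adjusted p = 0.514). In both genes every KO-labelled library stood below every WT library, as in 7.93% of all tested genes. Without overlap, 3 of the 21 genes stood lower in KO-labelled libraries, to be set beside that share, and 2 stood higher. The share of all tested genes that stood higher without overlap was not counted, so the 2 cannot be judged against it.

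The haem list, with 17 tested genes, had 7 estimates above 0 and 10 below, and a median of -0.11. Blvrb, a biliverdin reductase that acts after haem oxygenase, had 9, 45 and 28 counts in WT and none in KO-labelled libraries (edgeR adjusted p = 0.57). With the KO-labelled group set at 3 counts it would be 38.2-fold lower, a value that leaves out the spread between WT libraries and so is no lower bound. Blvrb passed the filter on low counts through the WT libraries alone. Such a pattern, none in KO-labelled libraries and a count in each WT library, was seen in 44 of the 8200 tested genes, and the reverse in 12. Bola1, of iron-sulphur cluster assembly, had no count in KO-labelled libraries either, with 25, 11 and 38 counts in WT (edgeR adjusted p = 0.57), and likewise passed the filter through WT alone. Alas1, the first enzyme of haem synthesis, had an edgeR adjusted p of 0.971. The 17 tested iron-sulphur genes had 7 estimates above 0 and 10 below (median -0.13), and the mitochondrial chaperone Hspa9 had 1361 ± 147 and 1024 ± 187 CPM (SD over 3 libraries each; edgeR adjusted p = 0.713).

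The zinc and copper list held 21 tested genes, 11 above 0 and 10 below (median 0.00). Its smallest p belonged to Atp7a, a copper pump, with 113, 113 and 119 CPM in WT libraries against 70.7, 68.7 and 76.8 CPM in KO-labelled ones (edgeR adjusted p = 0.99054). These groups do not overlap, and 7.93% of all tested genes stood lower in KO-labelled libraries without overlap. Slc39a11, with the next smallest p, stood the other way. It had 10.8, 18.8 and 0 CPM in WT libraries against 55.6, 51.7 and 5.84 CPM in KO-labelled ones (edgeR adjusted p = 0.99996), with overlap. Mt3 and Mt4, the other metallothioneins, had no counts.

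Of 20 tested ferroptosis defence genes 4 had an estimate above 0 and 16 below, with a median of -0.35, where 51% of all tested genes were below 0, and 1 had an unadjusted p under 0.05. That gene was the desaturase Scd1, at 375 ± 54 CPM in WT libraries against 223 ± 40.2 CPM in KO-labelled ones (SD over 3 libraries each; edgeR adjusted p = 0.479). Sqstm1 had the next smallest p, with 485 ± 50.9 and 359 ± 70.8 CPM (SD over 3 libraries each; edgeR adjusted p = 0.891). Of 18 tested genes that promote or mark ferroptosis 12 were above 0 and 6 below, with a median of 0.25. DESeq2 called 3 of these, against 2.85% of all tested genes. Ptgs2, a prostaglandin synthase used as a ferroptosis marker, had 92.1, 197 and 214 CPM in WT libraries against 494, 404 and 469 CPM in KO-labelled ones (log2 fold change 1.44 ± 0.31 SE, edgeR adjusted p = 0.0652). Acsl4, which loads polyunsaturated fatty acids into lipids, had 894 ± 107 and 600 ± 52.3 CPM (SD over 3 libraries each; edgeR adjusted p = 0.425). Cyb5r1, an oxidoreductase named here after its values were seen, had 28.9, 15.3 and 39.5 CPM in WT libraries against 115, 75.9 and 91.2 CPM in KO-labelled ones (edgeR adjusted p = 0.443). The genes of this list that DESeq2 called thus stood in different directions, Ptgs2 and Cyb5r1 higher and Acsl4 lower.

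**Figure D4:**
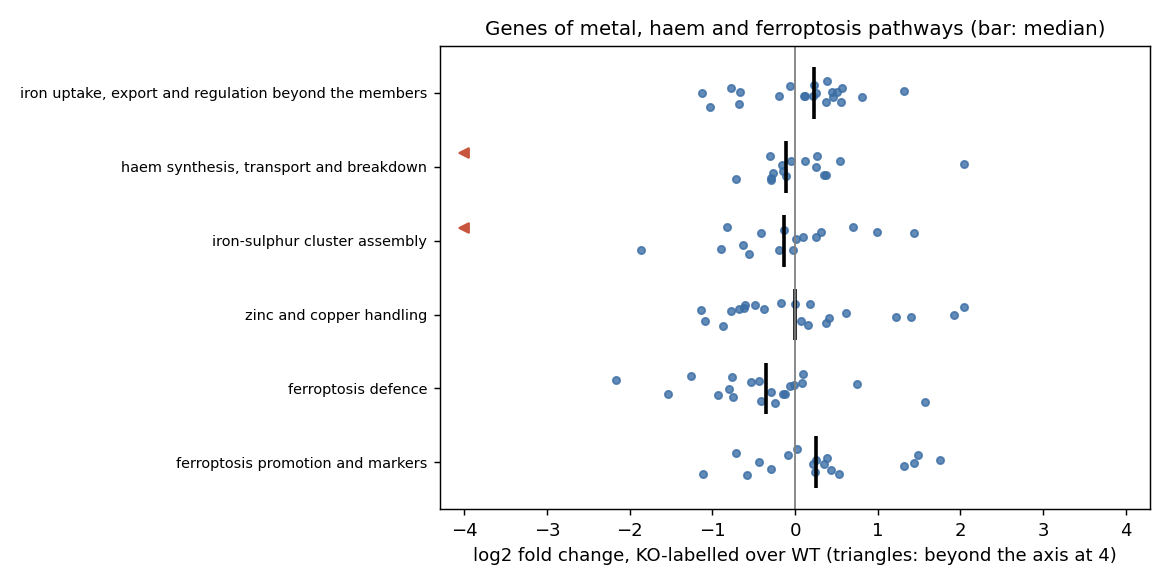
Log2 fold change of KO-labelled over WT libraries (x axis) for the tested genes of 6 lists (y axis; points are genes, bars the list medians, 3 libraries per group). Medians run from -0.35 for ferroptosis defence to 0.25 for ferroptosis promotion, and triangles mark Blvrb and Bola1, which have no counts in KO-labelled libraries.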

How the data were processed

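Poly(A)-selected RNA of 6 ID8 libraries was sequenced. The deposited table holds unscaled read counts for each gene, made by the authors with fastp, HISAT2 2.0.5 and featureCounts 1.5.0-p3 on mm10, per the submitters' processing notes. Settings, strand mode and how reads with several matches were treated are not stated there. Symbols were matched for 53274 of 53465 genes through GENCODE M21. The members and lists were chosen with earlier results of these data known. Genes were filtered with filterByExpr (minimum count 10), scaled with TMM and tested across all 8200 remaining genes in edgeR 4.0.16 (R 4.3.3) by the quasi-likelihood test with group as the only term, two-sided, with Benjamini-Hochberg adjustment. Log2 CPM values use a prior count of 2. DESeq2 1.42.0, limma-voom (limma 3.58.1), other scalings and filters, the replicate number as a block and leaving out each library were alternatives. Named were all members, and in each list genes past the threshold or the 2 smallest p-values. Planned ratios of Fth1 to Ftl1 and Mt1 to Mt2 were not formed, because Ftl1 had no count in 4 libraries and Mt2 in 5. The edgeR step was tested on simulated data.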

Additional observations from a re-analysis of the deposited data

How the results depend on the processing

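No member was called under any of the 14 other settings, DESeq2 and limma-voom included. Mt1, Tfrc, Ireb2 and Fth1 kept their direction in all of them, with log2 fold changes from -0.85 to -0.66, -0.67 to -0.46, -2.17 to -0.58 and 0.23 to 0.95. With 1 library left out, estimates ran from -1.24 to 0.10 for Slc11a2, -0.88 to 1.19 for Ncoa4 and -0.98 to 1.60 for Hmox1, so these 3 directions depend on single libraries. With the stricter filter Ncoa4 and Hmox1 were not tested. The difference in the log2 ratio of Tfrc to ferritin ran from -1.57 to -0.68. The alternatives planned for the Fth1 to Ftl1 and Mt1 to Mt2 ratios were not run, as those ratios could not be formed. Adding the genes named as ferritin copies changed nothing, since they had no counts. Gm6977, which shares sequence with Fth1, was not among them.

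Of the list genes, where edgeR called 0, library totals called 1 (Ptgs2), no filter 2 (Cp and Ptgs2), the replicate block 1 (Ptgs2), limma-voom 1 (Ptgs2) and DESeq2 4 (Cp, Cyb5r1, Acsl4 and Ptgs2). Over all genes 33 were called (15 higher, 18 lower), 234 in DESeq2, 91 without a filter, 44 with library totals (28 higher, 16 lower), and with 1 library left out 6 (WT replicate 5 or 6), 15 to 20 (a KO-labelled library) or 29 (WT replicate 4). Library totals shifted all genes by a median of 0.11 on the log2 scale. Same-numbered libraries did not deviate together (correlations of -0.0167, -0.00258 and -0.00666), so numbers were not taken as pairs. With the replicate block 38 genes were called and the log2 fold change of Hmox1 was 1.24. No library correlated best with the library of its own number. Depth limits Slc40a1, whose 0 allows up to 0.221 CPM.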
